A study of Mus musculus with 24 samples.

Results

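Heart polyA RNA of mutant mice labelled shRNA (4 libraries, replicates 5 to 8) was compared with that of untreated mutant mice (3 libraries, replicates 9 to 11). These 7 libraries are part of 24 in the series, of which 13 hold polyA RNA; the libraries were chosen by their treatment labels alone, and 12980 of 23998 genes whose mean over those 13 reached 1 FPKM (fragments scaled by transcript length and by the mapped total) were tested. All mice were on the CD1 background and carried the labelled variation RLC-47K L6, and mutant was taken from the sample names, since that field is the same for every sample. RLC is the regulatory light chain of myosin, here from a human MYL2 transgene in its mutated form. The mice labelled shRNA had received an AAV9 vector, a virus used to carry genes to the heart, with an H1 promoter driving the M7.8L shRNA and an RSV promoter driving the fluorescent protein Cerulean. It was given into the jugular vein at 3 days of age in 25 microlitres, and hearts were taken at 4 months. Untreated mice had no virus, so the vector and the shRNA cannot be told apart in this comparison. Mutant hearts given a control virus (3 libraries) and wild-type transgenic hearts given a control virus (3 libraries) were used as context and for the shared estimate of spread.

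The ventricular light chain binds the neck of the myosin head and tunes its interaction with actin. Mutations of it cause inherited hypertrophic cardiomyopathy, in which the heart muscle thickens and scars. Hearts under such strain are known to raise genes of the fetal programme and of the matrix and to lower genes of mitochondrial energy supply and of repolarisation. A short hairpin RNA is cut by Dicer and guides the RNA-induced silencing complex to matching transcripts, here meant for the mutated human allele.

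Library scales differed, with FPKM totals of 580948 to 1701499 and median log2 shifts of -0.54 to 0.80, and without read numbers the depth and the counting error are unknown. Levels are therefore given as aligned FPKM, scaled so that the libraries share a median, unless called deposited. In deposited FPKM the row for human MYL2, hMyl2, was 228.8, 419.6 and 317.2 in shRNA replicates 5, 6 and 7, and it was listed at 0 in shRNA replicate 8 and in all 3 untreated libraries, as in the other 6 libraries. A further row, called shRNA, held 0 for each of the 13 libraries. The homeobox gene Six3 was 0, 0.0637, 0 and 34.9 aligned FPKM in shRNA replicates 5 to 8, against 26.6, 19.7 and 32.0 in untreated hearts. It was 25.2 to 30.8 FPKM in mutant hearts with control virus and at most 0.0846 in wild-type hearts. Its neighbour Six3os1 was 0, 0.0522, 0 and 7.59 FPKM in shRNA replicates 5 to 8, against 5.96 to 7.74 in untreated hearts. Thus shRNA replicate 8 lay at or above the untreated level in Six3 and at the untreated value of 0 in hMyl2. Replicates 5 to 7 did not. The mutant genotype of every library compared here, untreated ones included, rests on its label alone. Among the libraries labelled mutant, hMyl2 was above 0 only in replicates 5 to 7, and Six3 was at the wild-type level only there. Replicates 5 to 7 were male and replicate 8 female by Y-linked genes, while untreated replicates 9 and 10 were male and 11 female. Rn45s, a ribosomal RNA row, was listed at 0 in shRNA replicate 8 and in untreated replicate 11, and was 16277 to 22526 deposited FPKM in shRNA replicates 5 to 7. In untreated replicates 9 and 10 it was 11562 and 8645. All mutants with control virus and wild-type replicate 2 had 0 as well, and wild-type replicates 3 and 4 had 15050 and 18965. Sex was used as a covariate in an alternative fit whose counts are given below. What part the other differences between libraries have in the results was not tested.

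Mouse Myl2, the endogenous gene for the light chain, was 28200, 36150, 27270 and 12660 FPKM in shRNA replicates 5 to 8, against 15220, 16640 and 15530 FPKM in untreated hearts. Replicates 5 to 7 lay above every untreated library and replicate 8 below all of them. In aligned values it did not pass over all 4 libraries (1.54-fold, adjusted p = 0.188, limma) and was 1.92-fold higher without replicate 8 (adjusted p = 9.98e-05). In deposited values it was 2.58-fold higher over all 4 libraries (adjusted p = 0.00172, limma) and 2.92-fold without replicate 8 (adjusted p = 9.46e-05). No source used here says whether transgene reads were added to this row.

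Over all 4 libraries labelled shRNA, 3777 of 12980 genes (29.1%) passed against untreated hearts by limma with a Benjamini-Hochberg adjusted p under 0.05, 2081 of them (16.0%) higher and 1696 (13.1%) lower. Without shRNA replicate 8, 6415 genes (49.4%) passed, 3289 higher (25.3%) and 3126 lower (24.1%). Of these, 3768 passed both ways in the same direction. In values as deposited, whose median log2 difference over the tested genes was 0.66, 6956 genes were higher (53.6%) and 157 lower (1.21%). Without replicate 8 the deposited values gave a median of 0.53, with 6053 genes higher (46.6%) and 808 lower (6.22%). Aligned and deposited values shared 2237 calls of the same direction with all libraries and 4095 without replicate 8. Directions given here are therefore relative to the median gene of each library, and of 146 named genes tested 40 lost their call in deposited values, and 13 did without replicate 8. With the spread estimated from the 2 compared groups alone, 390 genes passed over all libraries, and leaving out untreated replicate 10 left 1684. All 4 libraries labelled shRNA lay above every untreated library for 1607 genes (12.4%) and below for 1585 (12.2%).

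Replicate 8 held most of the spread within the hearts labelled shRNA. On a scale set to 0 at the mean of shRNA replicates 5 to 7 and to 1 at the untreated mean, it lay nearer the untreated mean for 5189 of the 6415 genes that passed without it (80.9%). Its median position was 0.848, with quartiles of 0.59 and 1.083. Results are therefore given with and without replicate 8 for the gene lists and for the genes described by library, and a fold with no such remark is over all 4 libraries.

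**Figure D1:**
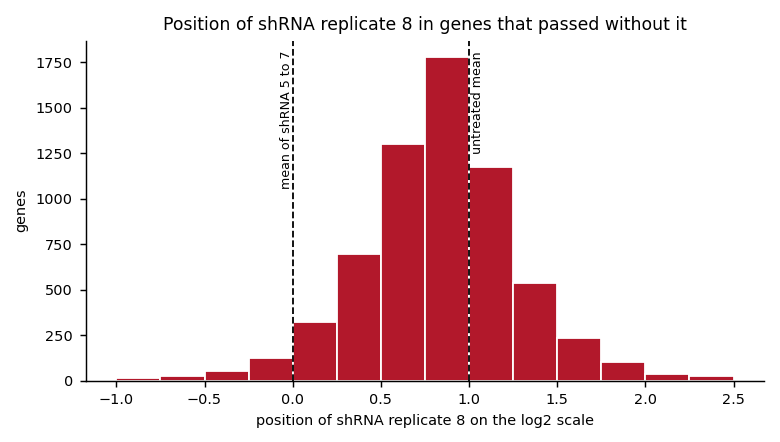
Histogram of the position of shRNA replicate 8 for genes that passed without it (x axis, log2 scale, 0 at the mean of shRNA replicates 5 to 7 and 1 at the untreated mean; y axis, genes per bin of 0.25). The largest bin, from 0.75 to 1.0, holds 1780 genes, and few genes lie near 0. Genes beyond the ends of the axis are counted in the end bins.

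Genes of the fetal and stretch programme were lower in hearts labelled shRNA. Nppa, coding for atrial natriuretic peptide, was 1260, 721, 1850 and 24580 FPKM in shRNA replicates 5 to 8, against 18050, 26870 and 23640 FPKM in untreated hearts. Well below all untreated libraries lay replicates 5 to 7, and replicate 8 was among them. The gene fell 8.89-fold over all libraries (log2 difference -3.15, SE 0.91, adjusted p = 0.0243) and 18.9-fold without replicate 8 (adjusted p = 3.13e-06). The stress cytokine Gdf15 was 2.66, 5.43, 10.9 and 158 FPKM in shRNA replicates 5 to 8, against 172, 169.7 and 316 FPKM in untreated hearts. Here replicate 8 lay just below the untreated range, and the fall was 14.5-fold over all libraries (log2 difference -3.86, SE 0.96, adjusted p = 0.0145) and 32.2-fold without replicate 8 (adjusted p = 2.04e-06). Myh7, the slow myosin heavy chain, was 222, 397, 492 and 2513 FPKM in shRNA replicates 5 to 8, against 2324, 1731 and 2292 FPKM in untreated hearts. Replicate 8 was the highest of these 7 libraries, so the call (3.64-fold lower, adjusted p = 0.0338) rests on the other 3 (5.95-fold lower without it, adjusted p = 6.13e-06).

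Acta1, skeletal actin, differed in pattern: it was 191, 89.1, 469 and 492 FPKM in shRNA replicates 5 to 8, against 2454, 1680 and 554 FPKM in untreated hearts. All 4 libraries labelled shRNA lay below the untreated range, and the fall was 5.24-fold (adjusted p = 0.0202). Untreated replicate 11 was close to shRNA replicates 7 and 8. Nppb, coding for brain natriuretic peptide, fell 5.30-fold (adjusted p = 0.0304), and Ankrd1, a stretch-responsive sarcomere protein, 3.15-fold (adjusted p = 0.0236). Rcan1, a calcineurin target and inhibitor, fell 4.68-fold (adjusted p = 0.00303), the deubiquitinase Uchl1 11.3-fold (adjusted p = 0.00475), and Enah, an actin regulator, 3.75-fold (adjusted p = 0.00153). Of 20 tested fetal and stretch genes 16 fell, 0 rose and 4 did not pass over all libraries; without replicate 8 these numbers were 17, 1 and 2. Their median log2 difference was -1.72 over all libraries and -2.21 without replicate 8, beside -0.0015 and -0.0053 over all genes tested. In deposited values 7 fell and 2 rose over all libraries.

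**Figure D2:**
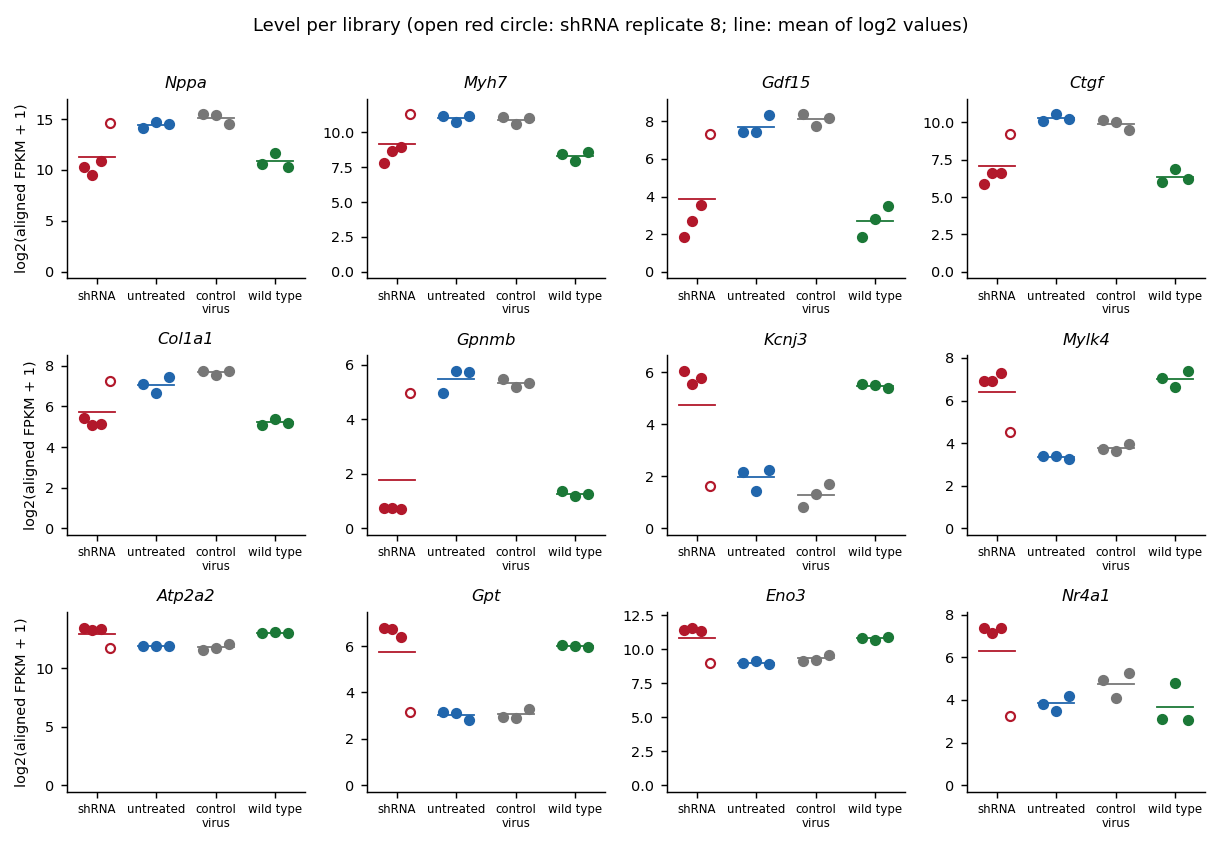
Level of 12 genes in each library (y axis, log2 of aligned FPKM + 1; x axis, hearts labelled shRNA, untreated mutant, mutant with control virus and wild type with control virus; lines, means of the log2 values). The open circle of shRNA replicate 8 lies within or near the untreated circles for Nppa (24580 FPKM), Kcnj3 and Gpt and between the groups for Ctgf and Mylk4, while the filled circles of replicates 5 to 7 lie apart from the untreated ones in all 12 panels.

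Genes of the extracellular matrix were lower as well. Col1a1, the main fibrillar collagen of scar, was 41.6, 33.2, 34.5 and 151 FPKM in shRNA replicates 5 to 8, against 134, 98.9 and 171 FPKM in untreated hearts. Replicates 5 to 7 lay close together below all untreated libraries and replicate 8 within the untreated range. The fall was 2.51-fold over all libraries (log2 difference -1.32, SE 0.41, adjusted p = 0.0318) and 3.56-fold without replicate 8 (adjusted p = 2.88e-06). Col3a1 and Col1a2, which form the same fibrils, fell 2.12-fold and 2.30-fold (adjusted p = 0.0383 and 0.0237), and Col6a3, of the beaded filaments around cells, 3.15-fold (adjusted p = 0.0049). Bgn, a small proteoglycan, fell 2.82-fold (adjusted p = 0.031). The microfibril protein Mfap4 was 9.34 to 12 FPKM in shRNA replicates 5 to 7 and 159 in replicate 8, against 66.1 to 114 FPKM in untreated hearts (adjusted p = 0.063, and 1.19e-07 without replicate 8). Of 30 matrix genes 16 fell, 0 rose and 14 did not pass over all libraries, with 27, 0 and 3 without replicate 8. The median log2 difference was -0.92, and -1.23 without replicate 8. In deposited values 1 fell over all libraries and 16 without replicate 8.

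Among remodelling genes, Ctgf, a secreted factor of fibrosis, was 56.2, 94.7, 96.5 and 599.9 FPKM in shRNA replicates 5 to 8, against 1098, 1482 and 1220 FPKM in untreated hearts. All 4 libraries labelled shRNA lay below the untreated ones, with replicate 8 between the other 3 and them. It fell 9.40-fold (log2 difference -3.23, SE 0.59, adjusted p = 0.00498), and 15.5-fold without replicate 8 (adjusted p = 2.13e-07). Tgfb2, a ligand of the TGF-beta receptors, was 6.61, 5.87, 5.52 and 59.8 FPKM in shRNA replicates 5 to 8, against 126, 144 and 102 FPKM in untreated hearts, and fell 10.3-fold (adjusted p = 0.00476). Again the groups did not overlap and replicate 8 lay between. Tgfb3, another ligand, fell 3.03-fold (adjusted p = 0.0144), Thbs1, which activates latent TGF-beta, 4.39-fold (adjusted p = 0.0023), and Timp1, an inhibitor of matrix proteases, 6.83-fold (adjusted p = 0.0238). Postn, made by activated fibroblasts, was 22.8, 23.7, 18.2 and 232 FPKM in shRNA replicates 5 to 8, against 107, 163 and 168 FPKM in untreated hearts. Its replicate 8 value lay above all untreated libraries, and it did not pass over all libraries (3.58-fold lower, adjusted p = 0.0647) but did without replicate 8 (6.43-fold lower, adjusted p = 2.02e-05). Of 37 remodelling genes 25 fell, 0 rose and 12 did not pass, and without replicate 8 31 fell and 2 rose. In deposited values 6 fell and 3 rose over all libraries, and 21 fell and 4 rose without replicate 8. In aligned values the 2 that rose were Ltbp1, which binds latent TGF-beta, and the matricellular Thbs2, named here after their values were seen.

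Fibroblast markers moved with these genes: their summed level was 2534 to 4316 FPKM in hearts labelled shRNA, with replicate 8 the highest, against 4775 to 4952 in untreated hearts, 4681 to 5516 with control virus and 2325 to 2827 in wild type. Of 17 markers 10 fell and 0 rose over all libraries, beside 13.1% lower and 16.0% higher among all genes. Without replicate 8, 15 fell and 1 rose, beside 24.1% and 25.3%. In deposited values 0 fell by limma and 1 rose over all libraries, and 7 fell and 1 rose without replicate 8. None of the 17 was at 0 in any library. In bulk RNA, fewer cells of a type and less RNA per cell cannot be told apart, and the part of the fibroblast markers in the matrix result was not tested.

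Macrophage and inflammatory genes were lower in hearts labelled shRNA, with replicate 8 in or near the untreated range for some and between the groups for others. Gpnmb, a glycoprotein of lipid-laden macrophages, was 0.694, 0.678, 0.643 and 30.1 FPKM in shRNA replicates 5 to 8, against 30.1, 53.6 and 51.8 FPKM in untreated hearts. The first 3 were under 1 FPKM and replicate 8 at the level of untreated replicate 9. The fall was 12.9-fold (log2 difference -3.69, SE 0.81, adjusted p = 0.0096), and 26.8-fold without replicate 8 (adjusted p = 6.5e-09). Lgals3, coding for galectin 3, was 1.97 to 2.88 FPKM in shRNA replicates 5 to 7 and 55.4 in replicate 8, against 29.4 to 113 FPKM in untreated hearts (9.60-fold lower, adjusted p = 0.0175). The chemokine Ccl8 fell 8.71-fold (adjusted p = 0.0116), complement C4b 4.67-fold (adjusted p = 0.004) and Tnfrsf12a, the receptor of the cytokine TWEAK, 4.30-fold (adjusted p = 0.00627). For these 3 genes replicate 8 lay below every untreated library and above replicates 5 to 7. Of 34 chemokine, cytokine and acute phase genes 13 fell and 0 rose, and without replicate 8 25 fell and 1 rose. In deposited values over all libraries 5 fell and 2 rose. The gene that rose was the eosinophil chemokine Ccl11, named after its value was seen.

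Antigen presentation genes were lower in shRNA replicates 5 to 7. H2-Ab1, a class II chain, was 43.3, 64.2, 30.6 and 181 FPKM in shRNA replicates 5 to 8, against 121, 171 and 189.7 FPKM in untreated hearts, and fell 2.49-fold (adjusted p = 0.0493). Replicate 8 lay inside the untreated range. Ciita, the activator of class II genes, fell 1.94-fold (adjusted p = 0.0273), H2-DMb1, which loads peptide, 3.06-fold (adjusted p = 0.0282), and H2-K1, of class I, 2.37-fold (adjusted p = 0.0104). Of 20 such genes 5 fell and 1 rose, beside 13.1% lower and 16.0% higher among all genes. With replicate 8 left out, 12 fell and 1 rose, beside 24.1% and 25.3%. The one that rose was the peptide transporter Tap2. In deposited values over all libraries 0 of the 20 fell by limma, and the calls of H2-Ab1, Ciita, H2-DMb1 and H2-K1 were lost (adjusted p = 0.343, 0.314, 0.121 and 0.27). Without replicate 8 9 fell in deposited values. Of 34 interferon-induced genes 1 fell and 1 rose, the RNA-binding Ifit2 (1.85-fold lower, adjusted p = 0.036) and Ifitm1, beside 13.1% and 16.0% of all genes. Without replicate 8, 13 fell and 1 rose, beside 24.1% and 25.3%. In deposited values over all libraries 0 fell by limma and 1 rose, and Ifit2 lost its call (adjusted p = 0.691). Without replicate 8, 5 fell and 1 rose in deposited values. Ddx58, the sensor of viral RNA, was 5.82 to 6.19 FPKM in shRNA replicates 5 to 7 and 11.5 in replicate 8, against 8.66 to 9.99 FPKM in untreated hearts (adjusted p = 0.18, and 0.00106 without replicate 8).

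Macrophage markers summed to 435.2 to 1820 FPKM in hearts labelled shRNA, with 1820 in replicate 8 and at most 574 in the other 3, against 1268 to 1664 in untreated hearts, 1401 to 1993 with control virus and 502.9 to 548.8 in wild type. Of 22 markers 9 fell and 0 rose, beside 13.1% lower and 16.0% higher among all genes. Without replicate 8, 17 fell, beside 24.1% of all genes. In deposited values 1 fell and 1 rose over all libraries, and 14 fell and 1 rose without replicate 8. In aligned values Cd163 and Timd4, of resident macrophages, were among the 5 that did not pass without replicate 8. Lyve1, also of resident macrophages, fell with and without it. Cd163 was 7.89 to 9.5 FPKM in hearts labelled shRNA, against 8.78 to 13 FPKM in untreated hearts (adjusted p = 0.339, and 0.31 without replicate 8). Of 5 tested lymphocyte markers 0 passed over all libraries by limma, and of 14 on the list 9 were too low to test. Their sum was 4.91, 5.75, 3.80 and 21.6 FPKM in shRNA replicates 5 to 8, against 12.4, 13.8 and 16.2 FPKM in untreated hearts. Replicates 5 to 7 lay below every untreated library and replicate 8 above, and 1 marker, Nkg7, fell without replicate 8. The part of immune cells in the results above was not tested.

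**Figure D3:**
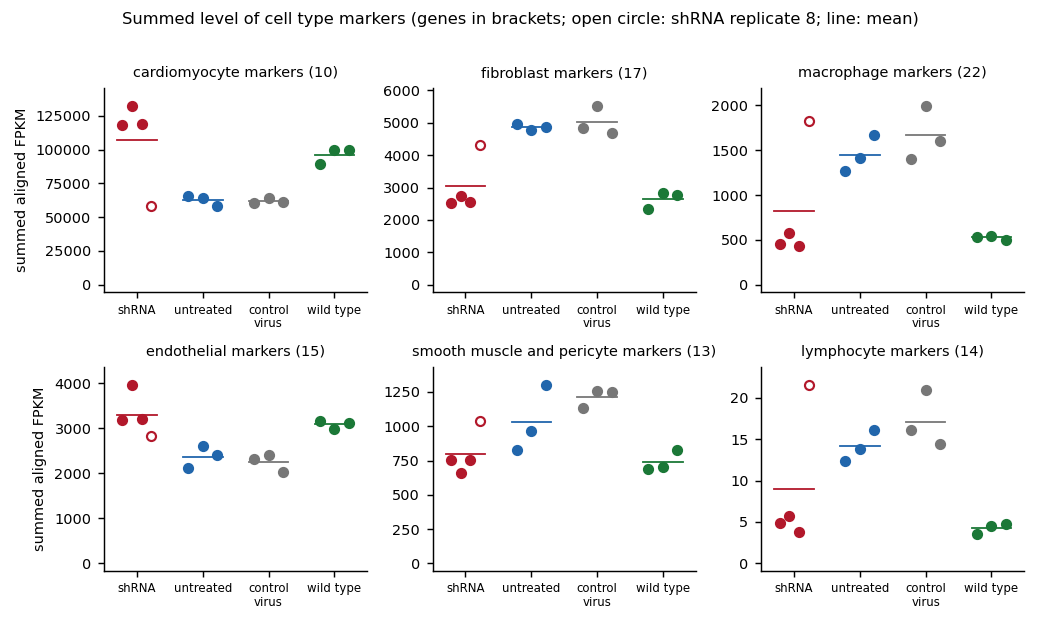
Summed level of 6 sets of cell type markers in each library (y axis, summed aligned FPKM from 0; x axis, hearts labelled shRNA, untreated, control virus and wild type; lines, group means). Macrophage and fibroblast sums of shRNA replicate 8 (open circle, 1820 and 4316 FPKM) lie at or near the untreated level, while its endothelial sum (2821 FPKM) lies above all untreated libraries.

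Several genes of calcium cycling were higher, while most of the list did not pass. The calcium pump gene Atp2a2 was 11310, 9997, 10630 and 3363 FPKM in shRNA replicates 5 to 8, against 3742, 3756 and 3737 FPKM in untreated hearts. The first 3 lay far above the untreated libraries, which were almost equal, and replicate 8 just below them. It rose 2.13-fold over all libraries (log2 difference 1.09, SE 0.36, adjusted p = 0.0408) and 2.84-fold without replicate 8 (adjusted p = 1.54e-06). Pln, coding for phospholamban, the inhibitor of that pump, rose 1.99-fold (adjusted p = 0.018), and Hrc, which binds calcium in the sarcoplasmic reticulum, 2.28-fold (adjusted p = 0.0299). Cacna1s, a voltage sensor best known from skeletal muscle, rose 3.41-fold (adjusted p = 0.0116), and Camk2a, a calcium-dependent kinase, 2.65-fold (adjusted p = 0.00615). The release channel gene Ryr2 was 393, 209.6, 348 and 205 FPKM in shRNA replicates 5 to 8, against 320.5, 330.2 and 309.7 FPKM in untreated hearts. Its shRNA libraries lay on both sides of the untreated ones, and it did not pass with or without replicate 8 (adjusted p = 0.526 and 0.828). In deposited values over all libraries it was higher (adjusted p = 0.0478). Of 23 calcium handling genes 5 rose, 1 fell and 17 did not pass, with a median log2 difference of 0.10, beside 16.0% of all genes that rose. Without replicate 8, 9 rose and 1 fell, and in deposited values over all libraries 19 rose and 1 fell. The gene that fell was Sln, sarcolipin, which was 0, 0, 0.743 and 0.514 FPKM in shRNA replicates 5 to 8, against 7.22, 4.51 and 3.92 FPKM in untreated hearts, with no overlap.

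The regulatory kinase gene Mylk4 had the largest fold of the sarcomere genes named here. It was 120.1, 122, 156 and 21.8 FPKM in shRNA replicates 5 to 8, against 9.44, 9.64 and 8.46 FPKM in untreated hearts. All 4 libraries labelled shRNA lay above the untreated ones, although replicate 8 was far below the others. It rose 8.40-fold (adjusted p = 0.00303), and 13-fold without replicate 8 (adjusted p = 1.61e-08). Cardiac troponin I, Tnni3, rose 2.5-fold (adjusted p = 0.018), troponin T, Tnnt2, 2.07-fold (adjusted p = 0.0188), and the essential light chain Myl3 2.13-fold (adjusted p = 0.0373). Of 28 sarcomere genes 8 rose and 1 fell, beside 16.0% higher and 13.1% lower among all genes. With replicate 8 left out, 16 rose and 2 fell, beside 25.3% and 24.1%. In deposited values over all libraries 17 rose and 0 fell by limma. Myh6, which codes for alpha myosin heavy chain, has a 0 in untreated replicate 11 and in 2 other libraries, so no fold is given. It was 12010, 9411, 13960 and 4162 FPKM in shRNA replicates 5 to 8, against 5435 and 4466 FPKM in untreated replicates 9 and 10. Cardiomyocyte markers summed to 58120 to 132200 FPKM in hearts labelled shRNA, with replicate 8 the lowest, against 58390 to 65550 in untreated hearts and 89030 to 99940 in wild type.

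Channel genes that set the resting potential and repolarise the heart were higher. Kcnj3, a subunit of the acetylcholine-gated potassium channel, was 65.0, 45.8, 53.5 and 2.12 FPKM in shRNA replicates 5 to 8, against 3.51, 1.73 and 3.80 FPKM in untreated hearts. Replicate 8 lay within the untreated range. It rose 6.91-fold over all libraries (log2 difference 2.79, SE 0.81, adjusted p = 0.0246) and 14.2-fold without replicate 8 (adjusted p = 1.76e-07). Abcc9, the sulfonylurea receptor of the ATP-sensitive potassium channel, was 207, 167, 204 and 52.8 FPKM in shRNA replicates 5 to 8, against 32.8, 41.9 and 34.3 FPKM in untreated hearts, and rose 3.78-fold (adjusted p = 0.00555). Here all 4 libraries lay above the untreated ones. Kcnk3, a background potassium channel, rose 1.99-fold (adjusted p = 0.00863). Of 27 channel genes 16 rose, 1 fell and 10 did not pass; without replicate 8 these numbers were 19, 1 and 7. With values as deposited over all libraries, 22 rose and 0 fell by limma. The connexin gene Gja1 was 623 to 722 FPKM in hearts labelled shRNA, against 571 to 708 FPKM in untreated hearts (adjusted p = 0.706, and 0.835 without replicate 8).

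Adrenergic and angiotensin genes moved both ways in aligned values. Agtr1a, the angiotensin receptor, was 63.5, 58.6, 68.0 and 16.8 FPKM in shRNA replicates 5 to 8, against 15.7, 13.9 and 13.4 FPKM in untreated hearts, and rose 3.04-fold (adjusted p = 0.0116). Replicate 8 lay just above the untreated range. The alpha-1 receptor gene Adra1b rose 2.74-fold (adjusted p = 0.0378), and Adra1a did not pass over all libraries (2.00-fold higher, adjusted p = 0.191) but did without replicate 8 (3.28-fold, adjusted p = 9.88e-06). Grk5, a kinase that silences activated receptors, fell 2.96-fold (adjusted p = 0.0155). Of 17 such genes 5 rose and 3 fell, beside 16.0% higher and 13.1% lower among all genes. Without replicate 8, 8 rose and 4 fell, beside 25.3% and 24.1%. Over all libraries as deposited, 12 rose and 0 fell by limma.

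Genes of mitochondrial energy supply were higher, with nearly all measured members moving one way. Idh2, the mitochondrial isocitrate dehydrogenase, was 3363, 3753, 3907 and 1150 FPKM in shRNA replicates 5 to 8, against 847, 769.9 and 818 FPKM in untreated hearts. All 4 libraries lay above the untreated range. It rose 3.38-fold (log2 difference 1.76, SE 0.35, adjusted p = 0.00704), and 4.52-fold without replicate 8 (adjusted p = 2.92e-07). Acaa2, the thiolase that ends each round of fatty acid oxidation, was 1890, 2006, 1568 and 299.9 FPKM in shRNA replicates 5 to 8, against 359, 278 and 259.8 FPKM in untreated hearts. Replicate 8 fell inside the untreated range, and the rise was 3.90-fold (log2 difference 1.96, SE 0.52, adjusted p = 0.0176), or 6.11-fold without it (adjusted p = 3.22e-07). Cox8b, a muscle subunit of cytochrome oxidase, was 7408, 8981, 7359 and 2648 FPKM in shRNA replicates 5 to 8, against 1984, 2013 and 2382 FPKM in untreated hearts. It rose 2.83-fold (adjusted p = 0.0109), with all 4 libraries above the untreated ones.

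Among genes of fatty acid uptake and oxidation 24 of 31 rose and 0 fell, and 29 rose without replicate 8, when Cpt1a, the liver form of the carnitine transferase, and Pdk4, the kinase that shuts off pyruvate use, were the 2 that did not pass. Etfb, an electron carrier, Echs1, a hydratase, and Eci1, an isomerase of the same pathway, rose 2.62-fold, 2.69-fold and 3.30-fold (adjusted p = 0.0128, 0.00695 and 0.0106). Of 26 genes of pyruvate entry and the tricarboxylic acid cycle 22 rose and 0 fell, and 25 rose without replicate 8, all but the pyruvate carrier gene Mpc1. Citrate synthase, Cs, rose 2.22-fold (adjusted p = 0.017), the other carrier gene Mpc2 2.69-fold (adjusted p = 0.00923) and Suclg1, of succinyl-CoA synthetase, 2.16-fold (adjusted p = 0.0127). Of 57 nuclear genes of respiratory complexes I, III, IV and V 54 rose and 0 fell, and 56 rose without replicate 8. The complex I genes Ndufs4, Ndufa5 and Ndufb10 rose 2.23-fold, 2.10-fold and 2.03-fold (adjusted p = 0.0111, 0.0104 and 0.0227). The median log2 differences of these 3 lists were 1.10, 0.86 and 0.93 over all libraries and 1.48, 1.13 and 1.23 without replicate 8, which lay nearer the untreated mean for each of the 29, 25 and 56 genes that passed without it.

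Genes of amino acid breakdown were higher too. Gpt, alanine aminotransferase, was 109.6, 106, 82.5 and 7.89 FPKM in shRNA replicates 5 to 8, against 8.03, 7.65 and 5.96 FPKM in untreated hearts. Replicate 8 lay within the untreated range. It rose 6.66-fold (log2 difference 2.74, SE 0.67, adjusted p = 0.0137), and 12.2-fold without replicate 8 (adjusted p = 6.65e-09). Bckdhb, of the branched-chain dehydrogenase, rose 3.13-fold (adjusted p = 0.0175), Mccc2, of leucine breakdown, 3.21-fold (adjusted p = 0.00498), and Aldh4a1, of proline breakdown, 4.43-fold (adjusted p = 0.00231). Of 30 genes on this list 23 rose and 1 fell, and 26 rose and 2 fell without replicate 8. The 2 that fell, Asns and Phgdh, make asparagine and serine rather than break amino acids down.

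Among genes of glucose use, Eno3, the muscle enolase, rose 3.58-fold (adjusted p = 0.0168), Ldhb, the heart lactate dehydrogenase, 2.58-fold (adjusted p = 0.00911), and Slc2a4, the insulin-responsive glucose transporter, 2.17-fold (adjusted p = 0.0155). Pfkfb1, a kinase that sets glycolytic flux, was 25.6, 30.8, 16.4 and 0.775 FPKM in shRNA replicates 5 to 8, against 0.450, 0.237 and 0.412 FPKM in untreated hearts, and rose 9.33-fold (adjusted p = 0.0118). Replicate 8 lay only just above the untreated libraries. Pfkp, the platelet isoform of phosphofructokinase, fell 1.73-fold (adjusted p = 0.0294). Of 28 genes 11 rose and 3 fell, beside 16.0% higher and 13.1% lower among all genes. With replicate 8 left out, 15 rose and 4 fell, beside 25.3% and 24.1%. With values as deposited over all libraries, 22 rose and 0 fell by limma. Of 19 creatine kinase and adenylate energy genes 9 rose and 0 fell over all libraries. The muscle creatine kinases Ckm and Ckmt2 rose 2.62-fold and 1.70-fold (adjusted p = 0.0132 and 0.0164) and the ADP/ATP carrier Slc25a4 2.42-fold (adjusted p = 0.0207). Without replicate 8, Ckb, Ckmt1 and Gatm, 3 genes of creatine use and synthesis named after their values were seen, were lower.

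Among regulators of these pathways, the nuclear receptor gene Rxrg rose 2.64-fold (adjusted p = 0.0135), Esrrb 1.74-fold (adjusted p = 0.00689) and Tfb2m, a mitochondrial transcription factor, 1.59-fold (adjusted p = 0.00221). Perm1, a muscle regulator of oxidative genes, was 327, 311, 343 and 184 FPKM in shRNA replicates 5 to 8, against 228, 182 and 179.6 FPKM in untreated hearts. Replicate 8 lay within the untreated range, and in aligned values the gene passed only without it (adjusted p = 0.000223, against 0.057 over all libraries). In deposited values it also passed over all libraries by limma (adjusted p = 0.000514). Of 21 regulators 5 rose and 1 fell, beside 16.0% higher and 13.1% lower among all genes. With replicate 8 left out, 13 rose and 1 fell, beside 25.3% and 24.1%. Pprc1 was the one that fell.

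**Figure D4:**
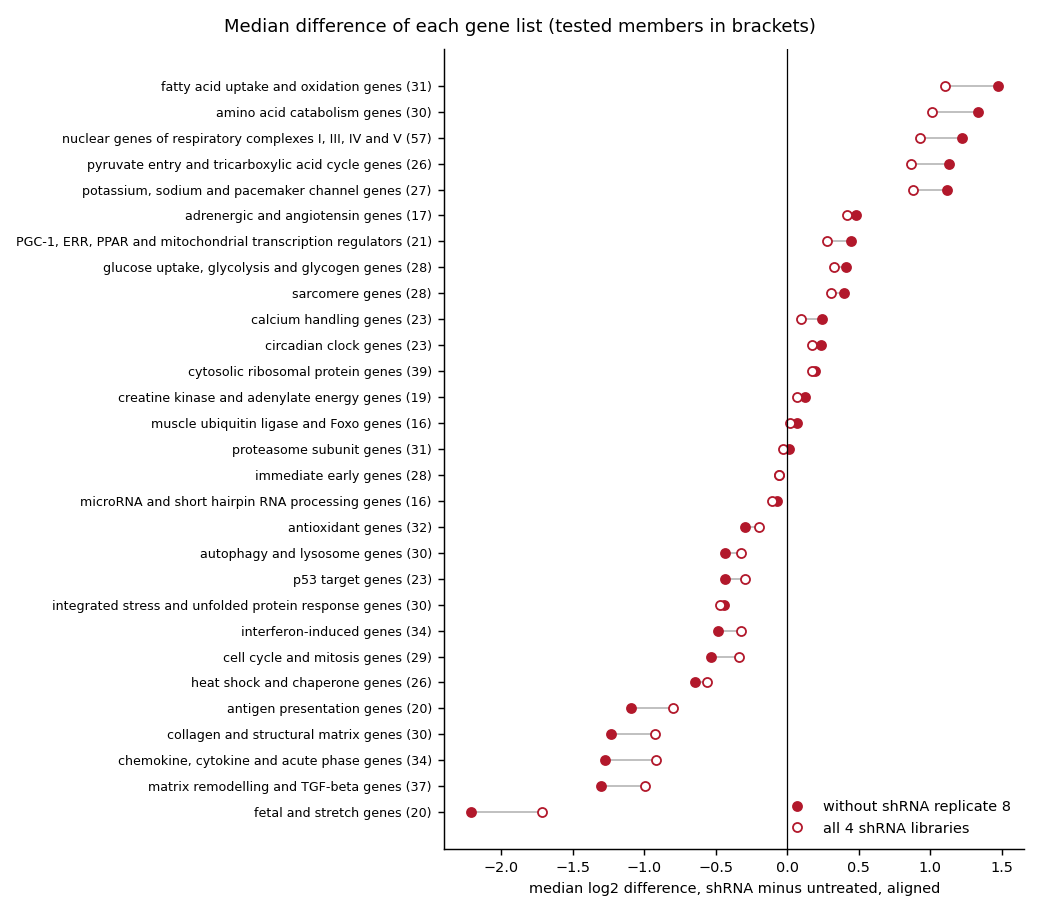
Median log2 difference of hearts labelled shRNA minus untreated hearts over the tested members of 29 gene lists (x axis, aligned values; y axis, lists with the number of tested genes). Filled circles leave out shRNA replicate 8 and open circles use all 4 libraries; the lists run from fetal and stretch genes (-2.21 without replicate 8) to fatty acid genes (1.48).

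Clock genes moved both ways in aligned values. The clock works as a loop in which ARNTL and CLOCK bind E-boxes (CACGTG) and drive Per, Cry, Nr1d1 and the output genes Dbp, Tef and Hlf, while NR1D1 represses Arntl. Dbp was 135, 75.2, 208 and 26.7 FPKM in shRNA replicates 5 to 8, against 13.8, 9.28 and 22.4 FPKM in untreated hearts. All 4 libraries lay above the untreated ones, replicate 8 closely. It rose 5.76-fold (log2 difference 2.53, SE 0.55, adjusted p = 0.00908), and 8.47-fold without replicate 8 (adjusted p = 2.65e-05). Arntl went the other way, with 3.95, 6.0, 1.72 and 11.2 FPKM in shRNA replicates 5 to 8, against 19.1, 17.4 and 13.4 FPKM in untreated hearts (3.00-fold lower, adjusted p = 0.0153), again with no overlap. The output genes Tef, Hlf and Usp2 rose 1.70-fold, 1.62-fold and 1.62-fold (adjusted p = 0.0289, 0.0379 and 0.0373). Ciart, a repressor within the loop, was 19.0, 9.27, 43.6 and 3.27 FPKM in shRNA replicates 5 to 8, against 2.92, 3.55 and 2.28 FPKM in untreated hearts, with replicate 8 inside the untreated range. It rose 3.62-fold (adjusted p = 0.0319). Clock, Npas2, Cry1 and Nfil3 fell with Arntl. Of 23 clock genes 6 rose and 5 fell over all libraries, beside 16.0% higher and 13.1% lower among all genes. Without replicate 8, 10 rose and 5 fell, beside 25.3% and 24.1%. In deposited values 14 rose and 0 fell by limma over all libraries, and 13 rose and 1 fell without replicate 8. No source used here gives the time of day at which hearts were taken, and its part in these values was not tested. Arntl and Ciart were named after their values were seen.

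The stretches before the start of Ciart and Tef are shown because they hold the E-box to which ARNTL and CLOCK bind, in capitals (RefSeq, build GRCm38.p6, 200 bases before the start, 5′ to 3′ on the gene's strand). Ciart lies on the minus strand at chr3:95882229-95882428, with matches that begin 116, 58 and 44 bases before the start, and Tef on the plus strand at chr15:81802473-81802672, with a match 127 bases before it.
Ciart: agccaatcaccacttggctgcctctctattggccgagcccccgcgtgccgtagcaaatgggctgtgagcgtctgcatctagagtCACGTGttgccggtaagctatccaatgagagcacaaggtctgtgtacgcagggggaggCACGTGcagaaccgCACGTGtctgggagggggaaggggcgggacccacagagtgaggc
Tef: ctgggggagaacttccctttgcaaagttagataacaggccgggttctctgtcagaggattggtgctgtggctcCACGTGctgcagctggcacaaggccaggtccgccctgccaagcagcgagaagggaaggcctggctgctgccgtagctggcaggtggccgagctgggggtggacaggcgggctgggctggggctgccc
Over 250 bases before the start, on both strands, CACGTG was found for 5 of 18 clock genes with a promoter (27.8%; Per1, Cry1, Tef, Bhlhe41 and Ciart) and for 830 of 9728 tested genes (8.53%). Other lists held it as well, with 7 of 21 lysosome genes (33.3%), 4 of 21 immediate early genes (19.0%) and 5 of 27 genes of glucose use (18.5%). Of these 5, Ciart and Tef rose over all libraries, Per1 passed upward only without replicate 8, Cry1 fell and Bhlhe41 did not pass. A match describes the letters in the window and not a binding site.

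Genes of the integrated stress response, in which ATF4 drives amino acid synthesis and redox genes, were lower in part. Mthfd2, a mitochondrial folate enzyme, was 1.72, 1.79, 2.84 and 32.8 FPKM in shRNA replicates 5 to 8, against 19.3, 32.3 and 34.3 FPKM in untreated hearts. Replicate 8 lay in the untreated range. It fell 5.14-fold (log2 difference -2.36, SE 0.71, adjusted p = 0.0279), and 9.36-fold without replicate 8 (adjusted p = 3.7e-06). Asns, asparagine synthetase, was 1.86, 1.56, 1.11 and 11.5 FPKM in shRNA replicates 5 to 8, against 6.79, 15.2 and 11.5 FPKM in untreated hearts, and fell 3.12-fold (adjusted p = 0.0354). Chac1, which breaks down glutathione, was 5.57, 5.92, 9.55 and 8.63 FPKM in shRNA replicates 5 to 8, against 12.9, 21.5 and 25.3 FPKM in untreated hearts. For Asns replicate 8 lay inside the untreated range, whereas for Chac1 it lay with replicates 5 to 7, and the groups did not overlap (2.45-fold lower, adjusted p = 0.00607). Nupr1, a stress-induced chromatin protein, was 7.53, 15.7, 5.95 and 33.5 FPKM in shRNA replicates 5 to 8, against 25.4, 33.7 and 42.0 FPKM in untreated hearts (2.5-fold lower, adjusted p = 0.0458). Pdia4, a folding enzyme of the endoplasmic reticulum, fell 1.66-fold (adjusted p = 0.00411), and Atf4 itself 1.50-fold (adjusted p = 0.00646). Of 30 tested genes 11 fell and 1 rose, and 15 fell and 3 rose without replicate 8; the chaperone Hspa5 and Herpud1 were among the 3. In deposited values the list's median turned to 0.20 over all libraries, with 7 higher and 1 lower. Atf4, Chac1, Nupr1 and Hspa5 were named after their values were seen.

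The stretches before Asns, Chac1 and Nupr1 are shown because each holds the letters TGATGNAA, the core of the element bound by ATF4 with its C/EBP partners (RefSeq, build GRCm38.p6, 200 bases before the start, 5′ to 3′ on the gene's strand, the match in capitals). Asns lies on the minus strand at chr6:7693210-7693409, with the match 23 bases before the start. Chac1 lies on the plus strand at chr2:119351042-119351241 and Nupr1 on the minus strand at chr7:126625471-126625670, with matches 193 and 110 bases before the start that read TTGCATCA, the reverse complement.
Asns: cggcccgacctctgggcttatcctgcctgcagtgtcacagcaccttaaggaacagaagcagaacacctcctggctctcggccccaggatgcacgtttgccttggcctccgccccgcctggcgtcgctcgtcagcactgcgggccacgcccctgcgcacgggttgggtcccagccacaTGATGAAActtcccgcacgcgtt
Chac1: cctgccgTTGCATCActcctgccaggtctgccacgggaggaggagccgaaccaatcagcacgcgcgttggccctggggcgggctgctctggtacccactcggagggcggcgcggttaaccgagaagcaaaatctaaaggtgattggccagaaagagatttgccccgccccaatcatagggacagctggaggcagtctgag
Nupr1: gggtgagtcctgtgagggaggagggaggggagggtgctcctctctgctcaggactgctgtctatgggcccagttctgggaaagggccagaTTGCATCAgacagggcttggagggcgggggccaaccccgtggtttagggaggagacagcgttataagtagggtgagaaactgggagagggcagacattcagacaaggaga
Over 250 bases before the start, on both strands, TGATGNAA was found for 5 of 29 genes on this list with a promoter (17.2%; Atf3, Chac1, Asns, Herpud1 and Nupr1) and for 194 of 9728 tested genes (1.99%). Of the 5, Chac1, Asns and Nupr1 fell, Herpud1 rose without replicate 8 and Atf3 did not pass. In all, 6 motifs were searched over the same bases and strands. Among all tested promoters the letters AAGGTCA bound by ERR receptors were in 2.78%, the AP-1 letters TGANTCA in 4.39%, the letters TTANGTAA bound by DBP and TEF in 1.23% and the CREB letters TGACGTCA in 2.78%.

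Heat shock and chaperone genes were lower in hearts labelled shRNA, in several cases with replicate 8 included. Hsp90aa1, the inducible cytosolic chaperone, was 84.9, 90.3, 87.1 and 386 FPKM in shRNA replicates 5 to 8, against 522, 686 and 477 FPKM in untreated hearts. The groups did not overlap, and it fell 4.34-fold (log2 difference -2.12, SE 0.43, adjusted p = 0.00747), or 6.28-fold without replicate 8 (adjusted p = 2.09e-07). Hsph1, a nucleotide exchange factor of HSP70, fell 3.79-fold (adjusted p = 0.00667), the cochaperone St13 1.91-fold (adjusted p = 0.00533), and the small heat shock gene Hspb1 2.46-fold (adjusted p = 0.00367). Hspa1a, the inducible HSP70, was 29.9, 22.5, 18.6 and 23.1 FPKM in shRNA replicates 5 to 8, against 114, 84.8 and 71.4 FPKM in untreated hearts. Replicate 8 lay among replicates 5 to 7, and the fall was 3.69-fold (adjusted p = 0.00587). Its near-identical copy Hspa1b, with which it shares reads, fell 4.51-fold (adjusted p = 0.00646). Wild-type hearts had 40.4, 112 and 41.1 FPKM of Hspa1a and hearts with control virus 26.0 to 60.4 FPKM. Of 26 tested genes 15 fell and 1 rose, and 17 fell and 3 rose without replicate 8. The median was -0.56, and -0.64 without replicate 8. In deposited values the median was 0.17 over all libraries, with 7 higher and 4 lower, so for most members the fall is relative to the median gene. Replicate 8 had a median position of 0.584 over the 20 that passed without it, beside 0.848 over all such genes. Hspa1a and Hspa1b were named after their values were seen.

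Among immediate early genes, Nr4a1, an orphan nuclear receptor, was 166, 139.8, 163 and 8.64 FPKM in shRNA replicates 5 to 8, against 13.2, 10.2 and 17.1 FPKM in untreated hearts. Replicates 5 to 7 lay far above all other libraries, which held 7.30 to 36.9 FPKM with wild type included, and replicate 8 lay below the untreated ones. It rose 5.48-fold (log2 difference 2.45, SE 0.84, adjusted p = 0.0459), and 11.0-fold without replicate 8 (adjusted p = 1.85e-05). Myc, a growth factor-induced regulator, fell 3.69-fold (adjusted p = 0.0166), Ier5 2.80-fold (adjusted p = 0.00322) and the zinc finger gene Egr2 2.33-fold (adjusted p = 0.048). Of 28 genes 2 rose and 6 fell, beside 16.0% higher and 13.1% lower among all genes. With replicate 8 left out, 7 rose and 9 fell, beside 25.3% and 24.1%. Over all libraries as deposited, 12 rose and 0 fell by limma. Of 23 p53 targets 2 rose and 2 fell, beside 16.0% and 13.1% of all genes. Among them Gadd45a, a damage-induced cell cycle brake, rose 2.01-fold (adjusted p = 0.00894), and Plk2, a kinase, and Zmat3, an RNA-binding protein, fell 2.87-fold and 1.69-fold (adjusted p = 0.00244 and 0.00608). Without replicate 8, 5 rose and 10 fell, beside 25.3% and 24.1%. In deposited values over all libraries 7 of these targets rose and 0 fell by limma. Phlda3, an inhibitor of AKT, was 11.8 to 18.8 FPKM in shRNA replicates 5 to 7 and 112 in replicate 8, against 46.3 to 78.5 FPKM in untreated hearts (adjusted p = 0.126, and 1.69e-05 without replicate 8).

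Among antioxidant genes, Sod2, the mitochondrial superoxide dismutase, rose 2.30-fold (adjusted p = 0.00882), while Srxn1 and Txnrd1, cytosolic NRF2 targets, fell 3.67-fold and 2.71-fold (adjusted p = 0.0201 and 0.0119), and secreted Gpx3 3.65-fold (adjusted p = 0.0124). The NRF2 gene itself, Nfe2l2, was 70.5 to 79.5 FPKM in hearts labelled shRNA, against 73.2 to 84.6 FPKM in untreated hearts (adjusted p = 0.408). Of 32 genes 7 rose and 7 fell, beside 16.0% higher and 13.1% lower among all genes. Without replicate 8, 7 rose and 15 fell, beside 25.3% and 24.1%. With values as deposited over all libraries, 14 rose and 0 fell by limma. The aligned counts of proteasome, ubiquitin ligase and lysosome genes that follow stand beside the same shares of all genes. Of 31 proteasome genes 1 rose and 6 fell, and 4 rose and 8 fell without replicate 8, but in deposited values 20 rose and 0 fell by limma over all libraries and 16 and 0 without replicate 8. Folds were 1.26 to 1.78 among the 4 named by rule: Psmd8, Psma5 and Psmd7 fell and Psmb2 rose. Over all libraries as deposited, Psma5 and Psmd7 turned higher without passing, as did Sqstm1, the autophagy receptor. Of 16 muscle ubiquitin ligase and Foxo genes 1 rose and 3 fell, and 4 rose and 3 fell without replicate 8. With values as deposited over all libraries, 10 rose and 0 fell by limma. Fbxo40, a muscle F-box protein, fell 2.37-fold (adjusted p = 0.00302), Fbxo30 1.76-fold (adjusted p = 0.00302), and the mitochondrial ligase Mul1 rose 1.62-fold (adjusted p = 0.00793). Trim63, coding for MuRF1, was 254, 302, 309 and 119 FPKM in shRNA replicates 5 to 8, against 145, 137 and 151 FPKM in untreated hearts. Replicate 8 was the lowest of these, and in aligned values the gene passed only without it (adjusted p = 0.072, and 2.09e-05 without). In deposited values it also passed over all libraries by limma (adjusted p = 0.00038). Of 30 autophagy and lysosome genes 3 rose and 10 fell, and 3 rose and 18 fell without replicate 8. Over all libraries as deposited, 9 rose and 0 fell by limma. Those that fell in aligned values included the cathepsin Ctsz (2.04-fold lower, adjusted p = 0.0301) and Sqstm1 (1.65-fold lower, adjusted p = 0.00974).

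Of 29 cell cycle genes 9 fell and 1 rose, and 13 fell and 3 rose without replicate 8. With values as deposited over all libraries, 0 fell by limma and 7 rose. Among all genes in aligned values 13.1% fell and 16.0% rose, and 24.1% and 25.3% without replicate 8. These shares also stand beside the ribosomal and microRNA processing counts below. Mki67, the proliferation antigen, was 0.959, 1.27, 0.761 and 2.57 FPKM in shRNA replicates 5 to 8, against 4.41, 4.84 and 4.56 FPKM in untreated hearts (2.44-fold lower, adjusted p = 0.0104). The groups did not overlap, at levels of a few FPKM. Topoisomerase Top2a fell 2.14-fold (adjusted p = 0.0207). Cenpf, a kinetochore gene, passed upward in aligned values only without replicate 8 (3.17-fold, adjusted p = 0.00171), and in deposited values also over all libraries by limma (adjusted p = 0.0294). Of 39 ribosomal and elongation genes 4 rose and 2 fell, and in deposited values 28 rose and 0 fell by limma. Rpl3l, the muscle form of ribosomal protein L3, was 668, 716, 631 and 68.0 FPKM in shRNA replicates 5 to 8, against 86.5, 33.6 and 40.5 FPKM in untreated hearts, with replicate 8 among the untreated libraries, and rose 7.6-fold (adjusted p = 0.0135). Eef1a1, the ubiquitous elongation factor, fell 2.25-fold (adjusted p = 0.0437), and its muscle form Eef1a2 was among 8 that rose without replicate 8. Of 16 genes that process microRNAs and short hairpins 1 rose and 0 fell by limma (3 rose and 2 fell without replicate 8). Prkra, a partner of Dicer, was 1.45-fold higher (adjusted p = 0.00998). In aligned values Dicer1, Drosha and the Argonaute genes did not pass over all libraries, and Drosha passed without replicate 8 (log2 difference 0.46, adjusted p = 0.00575). In deposited values Drosha was higher over all libraries by limma (adjusted p = 0.000887).

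Among the genes with the largest changes, Stbd1, a glycogen-binding protein, was 0.900, 1.76, 0.716 and 6.33 FPKM in shRNA replicates 5 to 8, against 60.8, 68.1 and 66.3 FPKM in untreated hearts, 23.2-fold lower (adjusted p = 0.00237). It varied from 12.1 to 71.1 FPKM with control virus and from 2.55 to 17.6 FPKM in wild type. The microtubule protein gene Map1a was 13.2-fold lower (adjusted p = 0.0107), Leprel1, a collagen prolyl hydroxylase, 11.3-fold (adjusted p = 0.0018), and Nlrc3, an inhibitor of innate sensing, 9.95-fold (adjusted p = 0.000527). With control virus, Leprel1 was 42.8 to 52.0 FPKM, against 66.1 to 71.6 FPKM in untreated hearts. Nlrc3 was 6.06 to 7.88 FPKM with control virus, against 12.3 to 23.4 FPKM in untreated hearts, while Map1a overlapped between these groups. Among those higher, Scd4, a desaturase of the heart, rose 8.48-fold (adjusted p = 0.00672), and Lrrc4b, a synaptic adhesion gene, 6.89-fold (adjusted p = 0.0119). Retnla, a resistin-like secreted protein, was 92.3, 114, 14.6 and 2.43 FPKM in shRNA replicates 5 to 8, against 3.31, 3.03 and 4.06 FPKM in untreated hearts. Replicate 7 was far below 5 and 6. In aligned values Retnla passed only without replicate 8 (adjusted p = 0.000319), and in deposited values also over all libraries by limma (adjusted p = 0.00265). Smco1 and Efnb3, an ephrin ligand, rose 6.74-fold and 6.87-fold (adjusted p = 0.0283 and 0.0173). The ribosomal protein rows Rpl26, Rpl29 and Rpl35a also had large folds but have near-identical copies among which the counting could split reads, so they are uncertain.

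A smaller set of genes differed from untreated hearts in all 4 libraries with replicate 8 nearer to replicates 5 to 7. These were chosen after their values were seen and are described only: 962 genes passed with and without replicate 8, had no overlap between the groups, and had replicate 8 closer to the other libraries labelled shRNA, 435 higher (3.35% of those tested) and 527 lower (4.06%). Angpt1, the ligand of the endothelial receptor Tie2, was 43.0, 47.8, 40.5 and 38.4 FPKM in shRNA replicates 5 to 8, against 7.68, 7.0 and 8.64 FPKM in untreated hearts. The 4 shRNA values lay within a narrow range, and hearts with control virus had 12.8 to 15.6 FPKM and wild-type hearts 25.8 to 51.9. Nxpe4 was 5.28, 6.72, 5.96 and 5.10 FPKM in shRNA replicates 5 to 8, against 0.402, 0.121 and 0.302 FPKM in untreated hearts, and at most 1.78 FPKM in any other library. It thus stood apart in the libraries labelled shRNA from all other libraries, wild type included. Tnni3k, a cardiac kinase, and Gramd1b, a sterol transporter, were also higher in all 4.

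On the lower side, Syndig1, a synapse organiser, was 0.247, 0, 0.115 and 0.240 FPKM in shRNA replicates 5 to 8, against 12, 8.12 and 5.69 FPKM in untreated hearts. Star, which carries cholesterol into mitochondria for steroid synthesis, was 1.91, 1.63, 2.87 and 3.28 FPKM in shRNA replicates 5 to 8, against 31.4, 27.7 and 17.3 FPKM in untreated hearts. For both genes replicate 8 was at the level of replicates 5 to 7 and of wild type. Mutant hearts with control virus also lay below every untreated library, with 2.765 to 3.896 FPKM of Syndig1 and 7.805 to 13.43 FPKM of Star. Krt18, a keratin, was 0.773, 0.377, 0.539 and 3.63 FPKM in shRNA replicates 5 to 8, against 12.6, 22.7 and 23.4 FPKM in untreated hearts. The potassium channel gene Kcnj6 was 0.106, 0.121, 0.0984 and 0.736 FPKM in shRNA replicates 5 to 8, against 5.92, 10.5 and 6.27 FPKM in untreated hearts. With control virus, Krt18 was 14.5 to 22.6 FPKM, within the untreated range, and Kcnj6 1.75 to 4.06 FPKM, below it. Among the gene lists, 6 of 26 heat shock genes were in this set, all lower (Hspa1a, Hspa1b, Hspb7, Dnajb1, Dnajb4 and Bag3). The stress response gave 5 of 30, all lower (Atf4, Atf6, Chac1, Pdia4 and Ppp1r15a). The clock gave 4 of 23 lower (Clock, Npas2, Cry1 and Nfil3), and the fetal list 4 of 20 lower (Acta1, Tnni1, Xirp1 and Xirp2). Of 37 remodelling genes 4 were in it, all lower (Cyr61, P4ha2, Mmp3 and Inhba). The cell cycle list gave 4 of 29 lower and 1 higher. The endothelial markers gave 4 of 15 higher (Cdh5, Tie1, Egfl7 and Fabp4). Beside these counts stand 3.35% higher and 4.06% lower among all genes tested. The lists of matrix, fatty acid, tricarboxylic acid cycle, respiratory, glycolytic and amino acid genes gave 0.

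**Figure D5:**
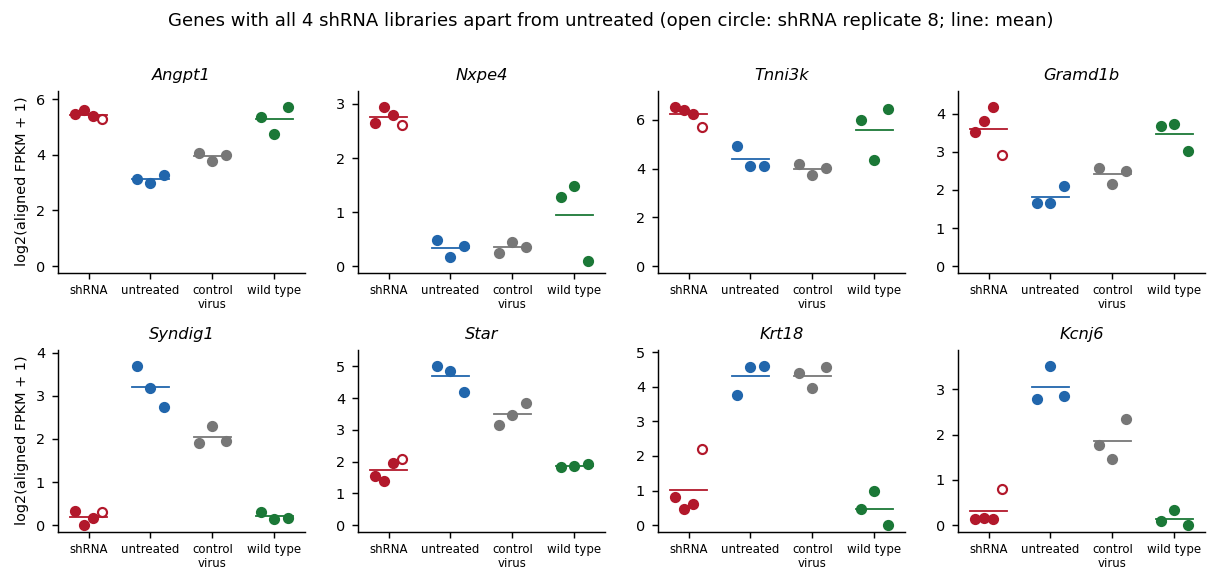
Level of 8 genes chosen for having all 4 libraries labelled shRNA apart from the untreated ones (y axis, log2 of aligned FPKM + 1; x axis, groups as labelled; open circle, shRNA replicate 8; lines, means of the log2 values). The open circle lies close to the other red circles in Angpt1, Nxpe4, Syndig1 and Star, and between the groups in Krt18.

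Endothelial markers summed to 2821 to 3975 FPKM in hearts labelled shRNA, with replicate 8 the lowest, against 2113 to 2600 FPKM in untreated hearts, without overlap. Of 15 such markers 4 rose and 0 fell, and 6 rose without replicate 8. Smooth muscle and pericyte markers moved both ways (5 higher, 3 lower of 13, with and without replicate 8). Among all genes 16.0% were higher and 13.1% lower, and 25.3% and 24.1% without replicate 8. Acta2, smooth muscle actin, also made by activated fibroblasts, was 37.4, 38.4, 50.0 and 609.7 FPKM in shRNA replicates 5 to 8, against 475, 542 and 916 FPKM in untreated hearts. Myh11 and Tagln, of mature smooth muscle, did not pass with or without replicate 8. Of 7 mesothelial markers 2 fell (Krt18 and Aldh1a2). Atrial markers summed to 854.9 to 24690 FPKM in hearts labelled shRNA, against 18150 to 26960 FPKM in untreated hearts, a sum set mostly by Nppa; of 12, 3 rose and 3 fell. Of 7 hepatocyte markers and 5 red cell markers 0 passed over all libraries by limma, and 2 and 0 without replicate 8.

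Last, shRNA replicates 5 to 7 were set beside all 10 other polyA libraries, wild type and replicate 8 included, as a description. They lay above every other library for 1280 genes (9.86%) and below for 891 (6.86%). Of 57 respiratory genes 51 lay above, of 26 tricarboxylic acid cycle genes 21, of 31 fatty acid genes 17 and of 30 amino acid genes 19, whereas of 23 clock and 39 ribosomal genes 0 did. For example, Idh2 was 3363 to 3907 FPKM in shRNA replicates 5 to 7, against 2156 to 3047 FPKM in wild type. Of 26 heat shock genes 12 lay below every other library and 1 above; Hsp90aa1 was 84.9 to 90.3 FPKM in shRNA replicates 5 to 7, against 167 to 265 FPKM in wild type. Thus replicates 5 to 7 did not lie at the wild-type level throughout. What sets them apart from the other libraries was not tested.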

How the data were processed

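Total RNA was extracted from hearts with Trizol and sequenced as polyA RNA in 100-base pairs, per the labels' protocols. FPKM values per gene were deposited by the authors, and the submitters' processing notes name FastQC 0.11.2, STAR 2.40, Cufflinks 2.2.1, Cuffdiff and build mm9. Columns were matched to samples by name, and groups were taken from the labels.

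Each library was aligned by its median log2 ratio over 13875 genes above 0 in all 13. Differences on log2(aligned FPKM + 1), a scale that understates low genes, were tested with limma 3.58.1 in R 4.3.3 (moderated with a trend, two-sided, Benjamini-Hochberg over 12980 genes). All 4 polyA groups shared 1 estimate of the spread, and folds are 2 to the power of these differences. The labels give separate heart samples, and p-values measure only the spread between these samples. Alternatives changed the scaling, pseudocount, filter, libraries, moderation and sex. The test was checked on simulated data. Without read numbers, counting error cannot be given.

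The members and gene lists were chosen with earlier results of these data known. Named genes were the transgene, Six3 and Myl2 rows, up to 10 largest changes each way with and without shRNA replicate 8, up to 4 genes per list by p without it, and a set of disease, channel and kinase genes. Any other gene was named after its values were seen. Promoters came from RefSeq build GRCm38.p6, which differs from the build of the files, and 9728 tested genes matched by symbol. A few genes that the rule names are not reported here.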

Additional observations from a re-analysis of the deposited data

Results flagged for a closer look

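Of 147 named genes, 77 had 1 library labelled shRNA far from the other 3: on log2(aligned FPKM + 1) its gap to the nearest, as a share of the range of the 4, was past the critical value of Dixon's test. That library was replicate 8 in 76 of them and replicate 7 for Rpl29. Chance gives such a gap in about 1 of 20 groups of 4. Among all 12980 tested genes, 1498 (11.5%) had one, and in 1209 of these (80.7%) it was replicate 8. The gap took these shares of the range in those named here. It was 0.99 for Gpnmb, 0.98 for Six3, Six3os1 and Aldh4a1, 0.97 for hMyl2 and Txnrd1, and 0.96 for Hsp90aa1. It was 0.95 for Rpl3l, Col1a2, Bckdhb and Ifit2, 0.94 for Bgn, Slc25a4, Nr4a1 and St13, 0.93 for Tgfb2, Lrrc4b, Cs, Ndufb10, Slc2a4 and Plk2, and 0.92 for Smco1, Mfap4 and Ndufs4. It was 0.91 for Lgals3, Rcan1, Tnnt2, Etfb, Sod2 and Ddx58, 0.90 for Map1a, Atp2a2, Eno3, Ckm, Ckmt2, Mul1 and Postn, 0.89 for Rpl29, Kcnj3, Camk2a, Agtr1a, Ldhb, Gpt and Mccc2, and 0.88 for Ankrd1, Hrc, Grk5, Echs1, Idh2 and Gusb. It was 0.87 for Leprel1, Cacna1s, Kcnk3, Adra1a, Tgfb3, Acaa2, Tfb2m and Srxn1, 0.86 for Mylk4, Rxrg and Mthfd2, 0.85 for Tnni3, Suclg1, Ndufa5, Perm1 and Col1a1, and 0.84 for Abcc9, Eci1, Mpc2, Cox8b, Ctsz and Pln. It was 0.83 for Myl3, Asns and Eef1a1.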

How the results depend on the processing

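Over all libraries labelled shRNA, values as deposited gave 7113 genes (6956 higher, 157 lower), and the 2 compared groups alone gave 390 (163 higher, 227 lower). Both changes together gave 4820 higher and 110 lower. Male libraries alone gave 2945 higher and 2687 lower. That fit leaves out shRNA replicate 8, untreated replicate 11, all mutants with control virus and wild-type replicate 4, so it is the same with and without replicate 8. Leaving out 1 library at a time gave 1684 to 6415 genes, 903 to 3289 higher and 781 to 3126 lower; the lowest came without untreated replicate 10 and the highest without shRNA replicate 8. The other settings stayed within 1.5 times. Among them, sex as a covariate gave 4148 genes over all libraries (2243 higher, 1905 lower) and 6240 without replicate 8. Without shRNA replicate 8, deposited values gave 6053 higher and 808 lower, and 5008 and 765 with the 2 groups alone. The cause was not tested.

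Of 146 named genes tested, 127 passed over all libraries and 143 without replicate 8. The 2 groups alone ended 104 of the calls over all libraries and 0 of those without replicate 8; deposited values ended 40 and 13. In deposited values, with all groups or the 2 alone, the log2 difference over all libraries changed sign to 0.194 for Psma5, 0.402 for Psmd7, 0.023 for Sqstm1, 0.022 for Gusb, 0.387 for Ddx17, 0.326 for Ddx58 and 0.532 for Ryr2. Without replicate 8 it changed sign to 0.225 for Psmd7, 0.149 for Ddx17 and 0.538 for Ryr2, which ran from -0.244 to 0.208 when 1 further library was left out.

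No paired analysis was possible because hearts labelled shRNA (replicates 5 to 8) and untreated hearts (9 to 11) share no replicate number.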

Other observations

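Of 8 tested neutrophil and mast cell markers 0 passed over all libraries by limma, and without replicate 8 the 5 genes Cpa3, Cma1, Mcpt4, Tpsb2 and Kit rose and Csf3r, the receptor of granulocyte growth factor, fell. The mast cell protease gene Mcpt4 was 6.87, 9.89, 8.34 and 1.74 FPKM in shRNA replicates 5 to 8, against 2.03, 0.954 and 3.85 FPKM in untreated hearts, with replicates 5 to 7 above the untreated range and replicate 8 inside it. All 5 genes were under 10 FPKM in these 7 libraries. These genes were chosen after their values were seen, and what moves them was not tested.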
